A study of Homo sapiens with 8 samples.

Results

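AP-1 and EGR immediate early factors are transcription factors whose genes are switched on within minutes of a growth, stress or cytokine signal. The 10 genes described here are FOS, FOSB, FOSL1, FOSL2, JUN, JUNB, JUND, EGR1, EGR3 and ATF3, taken by symbol from the 25167 gene symbols matched in the deposited table. They had 23 of its 48175 RefSeq transcripts. RNA was measured in 8 libraries of HMLE cells (human mammary epithelium made to grow without limit), in 4 groups of 2. The groups were SOX4-shRNA cells given TGF-β for 16 h, untreated SOX4-shRNA cells, scrambled-shRNA cells given TGF-β for 16 h and untreated scrambled-shRNA cells. SOX4 is a transcription factor of the SoxC family, and TGF-β is a cytokine under which such cells take on mesenchymal traits. The cells of all groups had been transduced with a lentiviral shRNA and selected with puromycin at 0.5 µg/mL, and SOX4 was lowered with 1 shRNA, so an effect of its sequence on other genes cannot be told apart from the knockdown. Nothing in the labels places the 2 libraries of a group in separate cultures, so a p-value here measures only how far these samples spread, and that spread may be technical.

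FOS and JUN proteins pair through leucine zippers to form AP-1, which binds a short DNA element near growth and matrix-remodelling genes. JUN proteins can pair among themselves, whereas FOS proteins need a JUN partner, and JUNB and the FOS-related FOSL1 and FOSL2 give dimers that differ in strength from FOS and JUN. EGR1 and EGR3 are zinc-finger factors that bind GC-rich elements, ATF3 is a stress-induced relative of the AP-1 proteins, and in epithelial cells these genes answer to EGF receptor and MAP kinase signalling through serum response factor and CREB-type factors.

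The promoters of EGR1, JUN and JUNB are shown because these are the members called in the pairwise tests below. Each line gives the 250 bases before the start annotated by RefSeq, 5′ to 3′ on the strand of the gene, at chr5:138465229-138465478 (EGR1, plus strand), chr1:58784048-58784297 (JUN, minus strand) and chr19:12791236-12791485 (JUNB, plus strand) of GRCh38.p14. Capitals mark matches, on either strand, to the CArG box of serum response factor, the EGR motif GCGNGGGCG, the 8-base AP-1 element TGACATCA and the shorter CREB site TGACG.
EGR1: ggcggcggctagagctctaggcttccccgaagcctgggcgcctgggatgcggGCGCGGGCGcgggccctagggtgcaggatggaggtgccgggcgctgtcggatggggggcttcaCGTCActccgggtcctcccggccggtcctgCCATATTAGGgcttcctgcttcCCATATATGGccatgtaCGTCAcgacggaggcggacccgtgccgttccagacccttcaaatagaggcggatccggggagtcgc
JUN: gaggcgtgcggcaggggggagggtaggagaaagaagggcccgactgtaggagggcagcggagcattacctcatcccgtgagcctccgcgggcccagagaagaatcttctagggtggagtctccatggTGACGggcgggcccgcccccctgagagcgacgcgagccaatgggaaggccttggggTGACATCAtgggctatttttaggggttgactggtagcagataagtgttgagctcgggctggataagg
JUNB: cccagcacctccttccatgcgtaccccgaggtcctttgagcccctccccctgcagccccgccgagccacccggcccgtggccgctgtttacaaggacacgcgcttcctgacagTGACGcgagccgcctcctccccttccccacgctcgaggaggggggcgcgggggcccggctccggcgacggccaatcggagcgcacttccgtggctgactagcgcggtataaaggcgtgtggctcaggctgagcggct

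RefSeq windows were matched for 8 of the 10 members. The EGR1 window held 2 CArG boxes, CCATATTAGG at bases -105 to -96 and CCATATATGG at -83 to -74 from the start, and 1 of the 8 members had such a box, against 1.16% of 35116 windows of all genes. EGR1 also had the EGR motif once (GCGCGGGCG, bases -198 to -190), which 8.41% of all windows held. JUN had TGACATCA at bases -67 to -60, and 1 window of ATF3 had it at -123 to -116, against 2.37% of all windows. The shorter site TGACG was found for 7 of the 8 members and in 21.2% of all windows. The full CREB element TGACGTCA, which contains the shorter site on both strands, was found in JUND and in 1.65% of all windows. The 7-base AP-1 motif TGANTCA, in 6.57% of all windows, and the SOX motif AACAAAG, in 4.5%, matched in none of the members' windows. These are matches of letters and not measured binding.

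**Figure D1:**
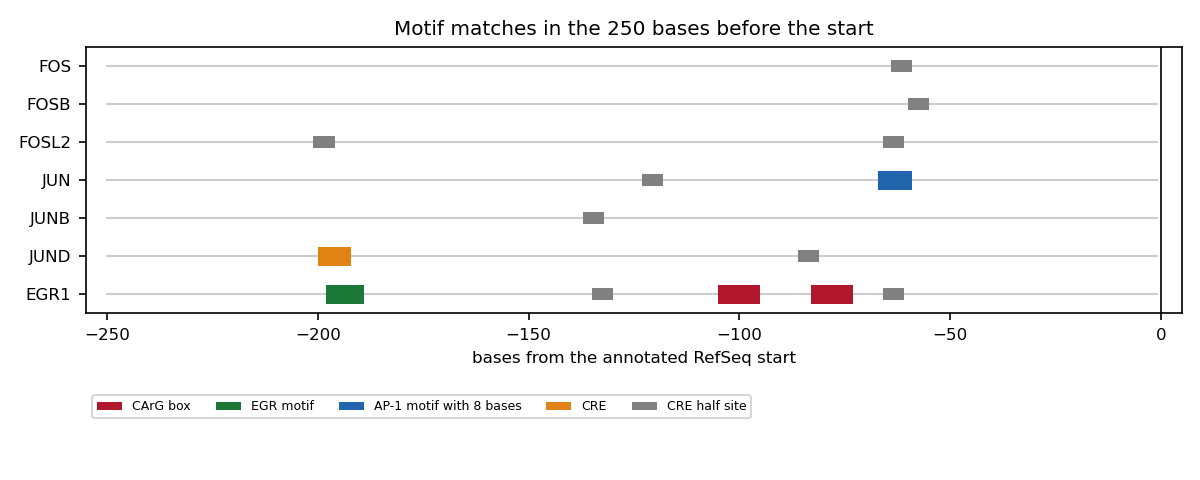
Motif matches on either strand in the 250 bases before the RefSeq start of 7 members, with the distance from the start in bases on the horizontal axis and 1 row per gene. The 2 CArG boxes of EGR1 lie between bases -105 and -74, and the 8-base AP-1 element of JUN at -67 to -60.

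Levels are in FPKM, a read count corrected for the length of the transcript and the size of the library, so they can be set beside each other between genes. Of the cells of the deposited table, 34.1% had lost their decimal mark, which leaves up to 3 possible values per cell that differ by factors of 10. For genes with 1 transcript the mark was placed where the values correspond to whole numbers of reads, and each restored reading has a posterior, its share of the probability among the possible readings. That probability also weighted the mean level and favoured readings with close libraries within a group and close groups. A posterior is therefore not independent of the differences between groups. FOS, FOSL2, JUN, JUNB, JUND and EGR1 were restored in this way with posteriors of 0.974 or more and were tested among 4816 genes. FOSB, EGR3 and 1 transcript of FOSL1 were settled without whole reads, from closeness and mean level alone. They were tested in a fit of 12012 genes that rests on likeliest readings. ATF3 was not settled and was not tested.

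The libraries held the equivalent of 12.6 M to 16.8 M reads, of which 2.98 M to 3.97 M lay in the genes tested. SOX4 had 2.37 and 1.88 FPKM in TGF-β-treated and 0.923 and 1.02 FPKM in untreated SOX4-shRNA cells, against 18.7 and 17.6 FPKM in TGF-β-treated and 8.74 and 8.04 FPKM in untreated scrambled-shRNA cells, at a posterior of 0.915. At this likeliest reading no SOX4-shRNA library reached the lowest scrambled one. Its posterior is under the 0.95 required of the 4816 genes tested, so the SOX4 levels are not settled. An unnamed gene overlaps SOX4 on the opposite strand. The epithelial markers KRT5 (2886 to 3945 FPKM), KRT14 (1446 to 2875 FPKM), KRT17 (642 to 2024 FPKM), KRT18 (408 to 622 FPKM), CDH1 (74.1 to 95.4 FPKM) and EPCAM (55.8 to 114 FPKM) were high in every library. The leading transcripts of KRT8 (20.4 to 50.2 FPKM, 1 of 4 and of the non-coding RefSeq type) and TP63 (5.85 to 17.2 FPKM, 1 of 6) were lower. These are not levels of the whole genes. Genes with several transcripts are given here by the leading one. Endothelial and leukocyte markers were low, with CDH5 and CD3E listed at 0 in all libraries. The 2 libraries of a group differed by a median of 1.2-fold per gene in each SOX4-shRNA group, 1.08-fold in TGF-β-treated and 1.12-fold in untreated scrambled-shRNA cells.

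JUNB and JUND differed more between the libraries of a group than most genes did. The higher library of untreated SOX4-shRNA cells had 2.11 times the JUND and 1.96 times the JUNB of the lower one, more than in 98.1% and 97.3% of genes. In each of the 4 groups JUND differed more than at least 93.3% of genes did. Replicate 1 was the higher one in both untreated groups and replicate 2 in both TGF-β-treated groups, for FOSL2, JUN, JUNB, JUND and the main FOSL1 transcript alike. This order was not particular to these members. Over 4816 genes the replicate differences correlated between the shRNAs (r = 0.55 without and 0.36 with TGF-β). Between treatments they ran against each other (r = -0.65 in SOX4-shRNA and -0.23 in scrambled-shRNA cells). EGR1 and JUN were closer, with at most 1.29-fold and 1.26-fold between the libraries of a group.

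**Figure D2:**
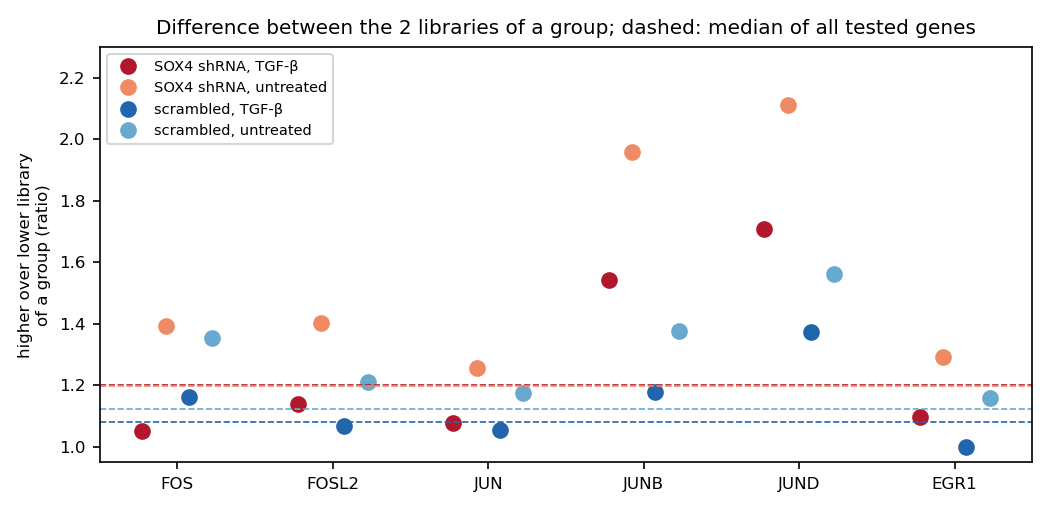
Ratio of the higher to the lower library of each group (vertical axis) for 6 members, with 1 point per group and dashed lines at the median of all tested genes in that group. JUND reaches 2.11 and JUNB 1.96 in untreated SOX4-shRNA cells, while EGR1 has at most 1.29.

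EGR1, which drives growth-factor and wound-response genes, was among the most abundant members. It had 55.1 and 60.5 FPKM in TGF-β-treated and 94.5 and 73.1 FPKM in untreated SOX4-shRNA cells, against 27.3 and 27.3 FPKM in TGF-β-treated and 52.5 and 45.3 FPKM in untreated scrambled-shRNA cells. These values rest on 1102 to 3853 reads per library. All 4 SOX4-shRNA libraries lay above all 4 scrambled ones, and within each kind of cell the TGF-β-treated libraries lay below the untreated ones. The order of the group means was untreated SOX4-shRNA (83.8 ± 15.1 FPKM), TGF-β-treated SOX4-shRNA (57.8 ± 3.85), untreated scrambled-shRNA (48.9 ± 5.08) and TGF-β-treated scrambled-shRNA cells (27.3 ± 0.00177; SD, n = 2 each). The last SD comes from 2 nearly equal libraries, and only 0.04% of genes differed less between them. It is no measure of precision, here or where it is repeated below. The tests below share 1 estimate of the spread over the 4 groups. The middle 2 groups had neighbouring values, with 55.1 FPKM as the lower SOX4-shRNA library and 52.5 FPKM as the higher scrambled one. The gene lies on chromosome 5 at 137801168 to 137804992 (plus strand, GRCh37) and has 2 exons.

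JUN, the founding AP-1 subunit, had 56.5 and 61.0 FPKM in TGF-β-treated and 42.3 and 33.6 FPKM in untreated SOX4-shRNA cells, against 42.1 and 44.5 FPKM in TGF-β-treated and 32.4 and 27.6 FPKM in untreated scrambled-shRNA cells. Its TGF-β-treated libraries lay above the untreated ones in each kind of cell, and at each treatment both SOX4-shRNA libraries lay above both scrambled ones, narrowly so without TGF-β (33.6 against 32.4 FPKM). JUNB, a JUN protein that can hold back JUN activity, had 70.9 and 109 FPKM in TGF-β-treated and 49.8 and 25.4 FPKM in untreated SOX4-shRNA cells, against 85.3 and 101 FPKM in TGF-β-treated and 71.0 and 51.6 FPKM in untreated scrambled-shRNA cells. Its TGF-β-treated libraries lay above the untreated ones in each kind of cell, and the TGF-β-treated groups of the 2 shRNAs overlapped. JUND, the JUN protein with the steadiest expression in most cells, had 12.2 and 20.9 FPKM in TGF-β-treated and 28.2 and 13.4 FPKM in untreated SOX4-shRNA cells, against 12.5 and 17.2 FPKM in TGF-β-treated and 18.6 and 11.9 FPKM in untreated scrambled-shRNA cells. Every pair of groups overlapped for JUND. JUN lies on chromosome 1 at 59242517 to 59249720 (minus strand), JUNB on chromosome 19 at 12902300 to 12904129 (plus strand, 1 exon) and JUND on chromosome 19 at 18390504 to 18392432 (minus strand, 1 exon). Exons of HOOK2 overlap JUNB on the opposite strand, and with no source saying whether reads were counted by strand, reads of the 2 genes cannot be told apart there.

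FOS, the best known immediate early gene, was low at this time point. It had 4.68 and 4.45 FPKM in TGF-β-treated and 4.64 and 3.33 FPKM in untreated SOX4-shRNA cells, against 6.19 and 5.32 FPKM in TGF-β-treated and 6.79 and 5.02 FPKM in untreated scrambled-shRNA cells, from 101 to 223 reads per library. Its highest SOX4-shRNA value (4.68 FPKM) was under its lowest scrambled value (5.02 FPKM), and the TGF-β-treated and untreated libraries overlapped in each kind of cell. FOSL2, a FOS-related partner of JUN proteins, was several times higher. It had 34.02 and 38.8 FPKM in TGF-β-treated and 37.1 and 26.4 FPKM in untreated SOX4-shRNA cells, against 23.3 and 24.9 FPKM in TGF-β-treated and 23.9 and 19.7 FPKM in untreated scrambled-shRNA cells. Every SOX4-shRNA library lay above every scrambled one, opposite in direction to FOS. FOS lies on chromosome 14 at 75745529 to 75748933 and FOSL2 on chromosome 2 at 28615315 to 28640184, both on the plus strand.

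FOSB and EGR3 were close to 1 FPKM. FOSB, the closest relative of FOS, had 0.861 and 1.40 FPKM in TGF-β-treated and 1.15 and 0.819 FPKM in untreated SOX4-shRNA cells, against 0.508 and 0.693 FPKM in TGF-β-treated and 0.917 and 0.931 FPKM in untreated scrambled-shRNA cells, with its 2 transcripts summed. The sums corresponded to 27 to 76 whole reads per library, so counting error alone is large. EGR3, a relative of EGR1 that EGR1-type signals also induce, had 1.22 and 1.23 FPKM in TGF-β-treated and 1.34 and 0.975 FPKM in untreated SOX4-shRNA cells, against 0.745 and 0.491 FPKM in TGF-β-treated and 1.13 and 0.983 FPKM in untreated scrambled-shRNA cells, with its 3 transcripts summed. For both genes the lowest group mean was that of TGF-β-treated scrambled-shRNA cells. The sums were chosen after the values were seen, and neither gene was called in the tests below.

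FOSL1, also called FRA1 and the FOS-related protein most tied to invasive epithelial cells, had 6 transcripts in the table. The main one, NM_005438, had 22.9 and 47.0 FPKM in TGF-β-treated and 42.3 and 18.2 FPKM in untreated SOX4-shRNA cells, against 26.3 and 36.3 FPKM in TGF-β-treated and 51.4 and 36.3 FPKM in untreated scrambled-shRNA cells, at a posterior of 0.978. The untreated and TGF-β-treated scrambled-shRNA groups met at 36.3 FPKM, and every other pair of groups overlapped. For 3 other FOSL1 transcripts every cell had up to 3 possible values, and the likeliest readings had posteriors of 0.485 to 0.837, so no level of the whole gene is given. ATF3 had 6 transcripts, of which NM_001040619 and NM_001206488 were below 1e-04 FPKM in all libraries and NM_001206484 reached at most 0.581 FPKM. Its 2 main transcripts, NM_001030287 and NM_001674, could lie anywhere between 1.04 and 601 FPKM in a cell, at posteriors of 0.279 and 0.201 for the likeliest reading. The smaller transcript NM_001206486 was intact only in scrambled-shRNA cells, at 0 to 0.496 FPKM, and in SOX4-shRNA cells the lowest possible value was 1.003 FPKM. At any reading this ATF3 transcript was therefore higher in the 4 SOX4-shRNA libraries than in the 4 scrambled ones, which says nothing of the sum over transcripts.

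**Figure D3:**
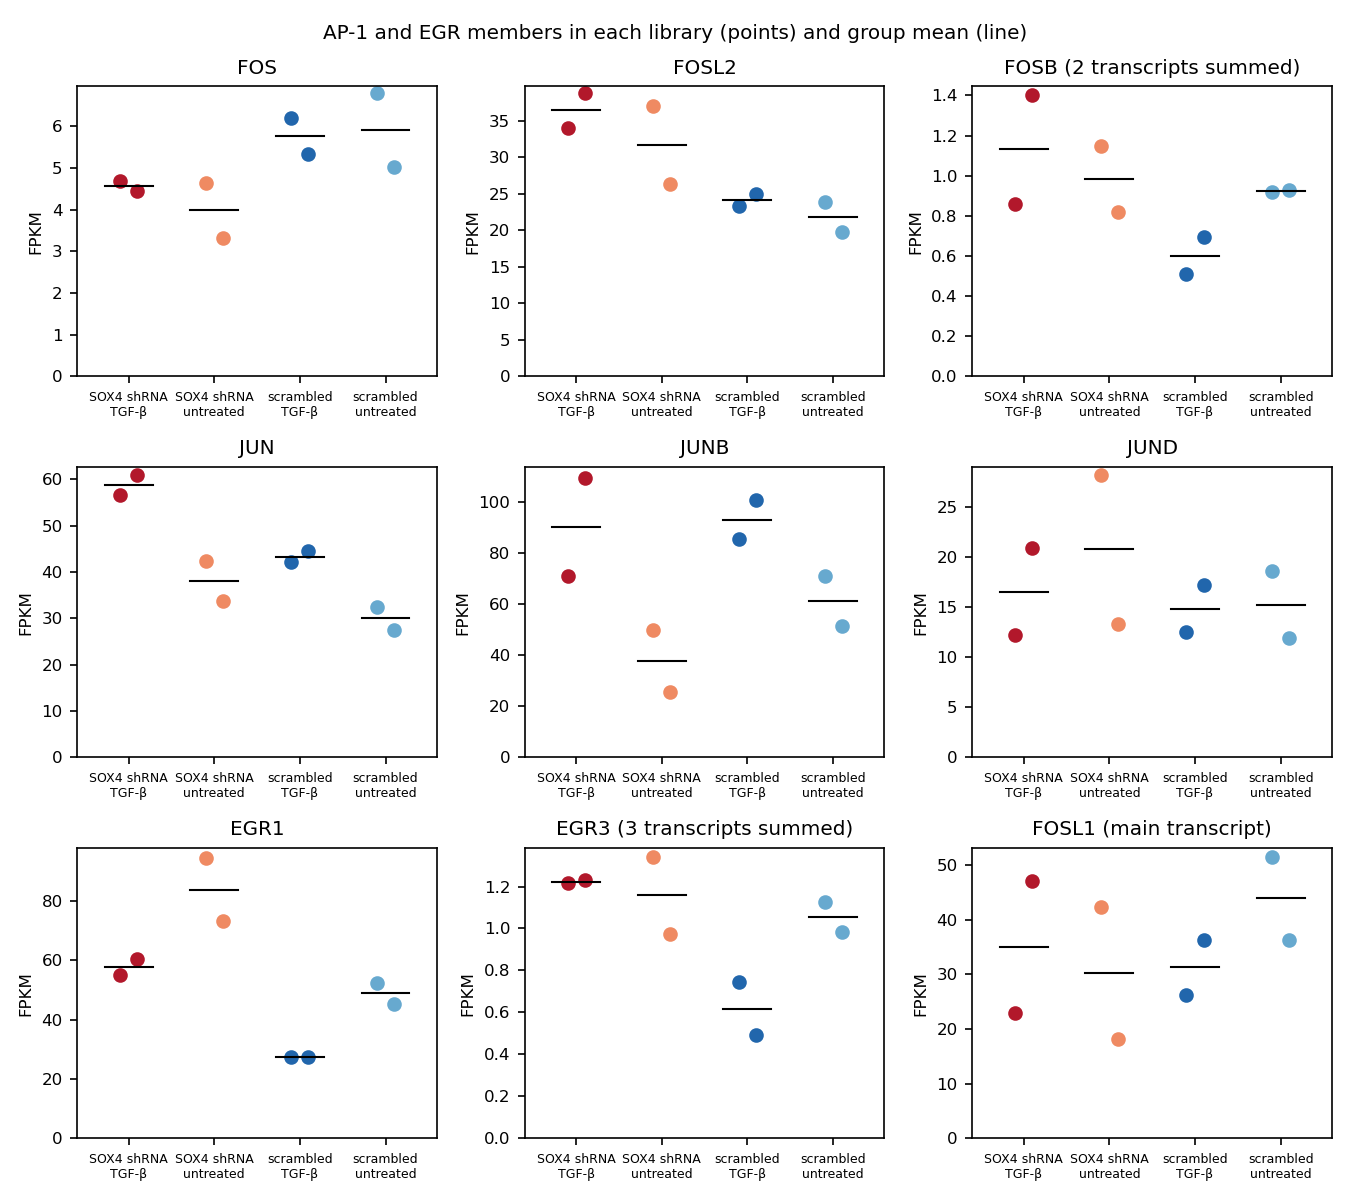
FPKM (vertical axes, which differ between panels) of 9 members by library, as points, with the group mean as a line, with SOX4-shRNA groups left of scrambled-shRNA groups and TGF-β-treated left of untreated. EGR1 and FOSL2 are higher and FOS lower in all SOX4-shRNA libraries, and JUND and FOSL1 spread widely within groups.

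The first comparison asked what the knockdown did in TGF-β-treated cells. EGR1 was higher, at 57.8 ± 3.85 FPKM in SOX4-shRNA cells and 27.3 ± 0.00177 FPKM in scrambled-shRNA cells (SD, n = 2 each). The log2 fold change was 1.05 ± 0.14 (SE; limma adjusted p = 0.0075), 2.07-fold on the log2(FPKM + 1) scale that is used for all tests here. EGR1 was the 1 member called of 6 tested, and 3.86% of the 4816 genes were called, 1.2% as higher and 2.66% as lower. By limma FOSL2 (0.57 ± 0.17, adjusted p = 0.14), JUN (0.43 ± 0.14, adjusted p = 0.16) and FOS (-0.28 ± 0.18, adjusted p = 0.51) were not called, and JUNB (-0.07) and JUND (0.12) had 95% intervals of -0.80 to 0.66 and -0.74 to 0.97. Without replicate 1 or 2 of TGF-β-treated scrambled-shRNA cells, the log2 fold change of EGR1 stayed at 1.05 with adjusted p = 0.11 each, against 0.0031 to 0.11 over 20 alternatives. These 20, used throughout, do not include a block with crossed replicate numbers that was added later and called more members in each of the 4 pairwise comparisons.

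In untreated cells the knockdown also went with more EGR1, at 83.8 ± 15.1 FPKM in SOX4-shRNA cells and 48.9 ± 5.08 FPKM in scrambled-shRNA cells (SD, n = 2 each). The log2 fold change was 0.76 ± 0.14 (limma adjusted p = 0.026). EGR1 was again the 1 member of 6 called, where 3.99% of genes were called, 1.1% as higher and 2.89% as lower. JUNB measured -0.75 ± 0.32 (adjusted p = 0.25), FOS -0.47 ± 0.18 (adjusted p = 0.19), FOSL2 0.51 ± 0.17 (adjusted p = 0.16), JUN 0.33 ± 0.14 (adjusted p = 0.25) and JUND 0.36 ± 0.37 (adjusted p = 0.64). The median over the 6 members was 0.35, against 0.01 over all genes. The EGR1 call was lost in 9 of 20 alternatives (adjusted p 0.024 to 0.19). Among them were the fits without untreated scrambled replicate 1 (0.86, adjusted p = 0.10) or 2 (0.65, 0.19), TGF-β-treated scrambled replicate 1 (0.76, 0.074) or 2 (0.76, 0.073) and untreated SOX4-shRNA replicate 1 (0.58, 0.081), and the fit with a replicate block (adjusted p = 0.058).

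Fibroblast markers moved with the knockdown as well. The 5 fibroblast markers summed to 2.84 to 3.12 FPKM in TGF-β-treated and 1.60 to 1.69 FPKM in untreated SOX4-shRNA cells, against 6.02 to 6.93 FPKM in TGF-β-treated and 5.97 to 6.54 FPKM in untreated scrambled-shRNA cells. Of the 5, 3 exceeded 0.5 FPKM in some library (COL3A1, PDGFRB and DCN), and LUM and PDGFRA never exceeded 0.105 FPKM. The 8 epithelial markers summed to 7311 to 7491 FPKM in TGF-β-treated and 5710 to 6603 FPKM in untreated SOX4-shRNA cells, against 8553 to 8702 FPKM in TGF-β-treated and 7929 to 8554 FPKM in untreated scrambled-shRNA cells. Keratins make up most of these sums, and the markers did not all move alike. KRT5, KRT17 and KRT18 were lower in SOX4-shRNA cells at each treatment, while EPCAM was higher at each. The leading KRT8 transcript and KRT14 were lower without TGF-β, and KRT14 was higher with it. The part of other cells in the members' changes was not tested. In bulk RNA, fewer cells with a transcript and less of it per cell cannot be told apart.

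TGF-β in SOX4-shRNA cells went with more JUN and JUNB. JUN averaged 58.8 ± 3.14 FPKM in treated and 38.0 ± 6.13 FPKM in untreated cells, with a log2 fold change of 0.62 ± 0.14 (limma adjusted p = 0.032). JUNB averaged 90.1 ± 27.2 FPKM in treated and 37.6 ± 17.2 FPKM in untreated cells (SD, n = 2 each), with 1.28 ± 0.32 (adjusted p = 0.045). These were 2 of 6 members, where 8.55% of genes were called, 6.06% as higher and 2.49% as lower. EGR1 was lower at -0.52 ± 0.14 and missed the threshold (adjusted p = 0.064), and FOS (0.17), FOSL2 (0.21) and JUND (-0.27) were not called (adjusted p = 0.60, 0.51 and 0.72). EGR1 passed without untreated SOX4-shRNA replicate 2 (-0.70, adjusted p = 0.036), against 0.036 to 0.24 over 20 alternatives. The JUN call was lost in 11 and the JUNB call in 10 of 20 alternatives, with adjusted p from 0.022 to 0.15 and from 0.011 to 0.19. The JUN call needed every library except untreated SOX4-shRNA replicate 1, with log2 fold changes of 0.46 to 0.68 and adjusted p = 0.051 to 0.13 where it was lost. The JUNB call was lost without any 1 scrambled library (1.28, adjusted p = 0.065 to 0.090), without untreated SOX4-shRNA replicate 2 (0.81, adjusted p = 0.15) and on omission of TGF-β-treated SOX4-shRNA replicate 2 (0.97, adjusted p = 0.19). With a replicate block the adjusted p was 0.068 for JUN and 0.092 for JUNB.

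In scrambled-shRNA cells TGF-β lowered EGR1. It averaged 27.3 ± 0.00177 FPKM in treated and 48.9 ± 5.08 FPKM in untreated cells (SD, n = 2 each), a log2 fold change of -0.81 ± 0.14 (limma adjusted p = 0.017). EGR1 was the 1 member of 6 called, where 6.94% of genes were called, 4.63% as higher and 2.3% as lower. JUN was higher by 0.52 ± 0.14 and missed the threshold (adjusted p = 0.059), and JUNB measured 0.61 ± 0.32 (adjusted p = 0.29). FOS (-0.02, 95% interval -0.43 to 0.38), FOSL2 (0.15, -0.25 to 0.54) and JUND (-0.02, -0.87 to 0.83) were not called. The EGR1 call was lost without untreated scrambled replicate 1 (-0.71, adjusted p = 0.13) or 2 (-0.92, 0.067) and without TGF-β-treated scrambled replicate 1 (-0.81, 0.16) or 2 (-0.81, 0.14), and ranged from adjusted p = 0.0020 to 0.16 over 20 alternatives. JUN passed at adjusted p = 0.036 without either untreated SOX4-shRNA library and ranged from adjusted p = 0.011 to 0.33 over the same 20. JUNB passed by limma with only the groups compared (adjusted p = 0.025, against 0.025 to 0.64).

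**Figure D4:**
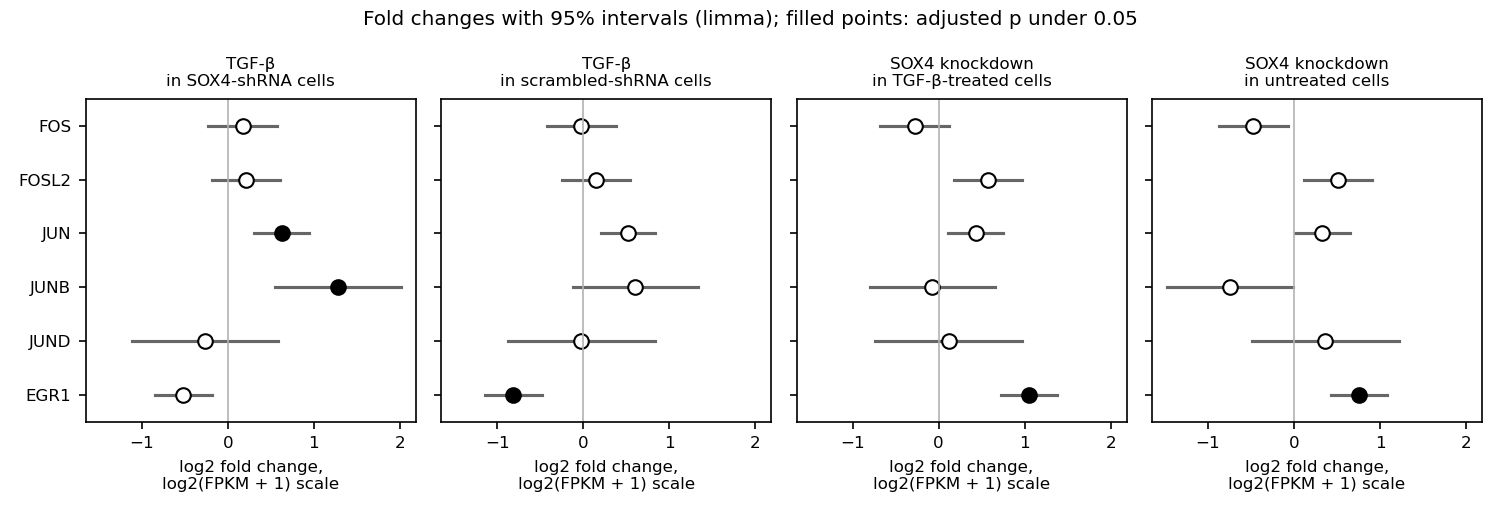
Log2 fold change on the log2(FPKM + 1) scale (horizontal axis) with its 95% interval for 6 members in 4 comparisons, where filled points passed the threshold. EGR1 lies right of 0 in both knockdown comparisons and left of 0 in both TGF-β comparisons, and JUND has intervals wider than 1.5 in all 4.

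FOSB, EGR3 and the main FOSL1 transcript were tested in the fit of all 12012 kept genes, with 1 transcript per gene. Of these 3, limma called 0 in each of the 4 comparisons, and 0 had an unadjusted p under 0.05, where 0.733% of genes were called for the knockdown with TGF-β, 1.08% without it, 1.8% for TGF-β in SOX4-shRNA and 1.22% in scrambled-shRNA cells. With its transcripts summed, an alternative chosen after the values were seen, EGR3 had a log2 fold change of 0.46 ± 0.14 for the knockdown with TGF-β (limma adjusted p = 0.26) and -0.35 ± 0.14 for TGF-β in scrambled-shRNA cells (adjusted p = 0.30). An unnamed gene overlaps EGR3 on the opposite strand. FOSL1 had SEs of 0.52, so its intervals reached from -1.21 to 1.39 for the knockdown with TGF-β and from -1.92 to 0.68 without it.

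The response to TGF-β was not shown to differ between SOX4-shRNA and scrambled-shRNA cells for any member. The difference was 0.68 ± 0.45 for JUNB, 0.29 ± 0.20 for EGR1, 0.19 ± 0.25 for FOS, 0.10 ± 0.20 for JUN, 0.06 ± 0.24 for FOSL2 and -0.25 ± 0.53 for JUND (limma interaction, adjusted p = 0.99 each). Of the 6 members 0 were called and 0 had an unadjusted p under 0.05, and of the 4816 genes 0 (0%) were called, 131 with an unadjusted p under 0.05 and 0 with voom on whole reads. The fit of all kept genes called 9 genes (0.0749%), none of them a member. The 95% interval was -0.36 to 1.71 for JUNB and -0.17 to 0.76 for EGR1.

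Since the 2 factors were crossed, each effect was also averaged over the other factor, with 4 libraries on each side. This contrast was chosen after the values were seen. Averaged over treatments, the knockdown raised EGR1 by 0.90 ± 0.10 (limma adjusted p = 0.0014), FOSL2 by 0.54 ± 0.12 (adjusted p = 0.026) and JUN by 0.38 ± 0.10 (adjusted p = 0.042), 3 of 6 members against 12.2% of genes, 5.29% as higher and 6.87% as lower. FOS measured -0.37 ± 0.12 (limma adjusted p = 0.092), and passed without untreated SOX4-shRNA replicate 1 (-0.47, adjusted p = 0.047, against 0.047 to 0.28 over 20 alternatives). The ranges of the 4 SOX4-shRNA and 4 scrambled libraries did not overlap for EGR1, FOSL2 and FOS, 3 of 6 members against 11.9% of genes, 5.34% as higher and 6.56% as lower. Averaged over shRNAs, EGR1 fell with TGF-β (-0.67 ± 0.10, limma adjusted p = 0.0035), and JUN rose by 0.57 ± 0.10 (adjusted p = 0.0059) and JUNB by 0.94 ± 0.23 (adjusted p = 0.020), 3 of 6 members against 21.6% of genes, 11.8% as higher and 9.82% as lower. The ranges of the 4 treated and 4 untreated libraries did not overlap for 0 members, against 20.1% of genes.

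Both averaged EGR1 effects and the averaged TGF-β effect on JUN passed in all of 20 alternatives, the replicate block and each left-out library included, with limma adjusted p of at most 0.018, 0.026 and 0.038. The other 3 averaged calls, of FOSL2 and JUN for the knockdown and JUNB for TGF-β, were less stable. With no filter they were lost at limma adjusted p = 0.073, 0.088 and 0.086, and with all kept genes at 0.10, 0.11 and 0.10. The replicate block also lost FOSL2 (adjusted p = 0.052) and JUN (0.078). All 3 depended on single libraries as well. FOSL2 lost its call without untreated scrambled replicate 2 (0.47, adjusted p = 0.10), TGF-β-treated scrambled replicate 1 (0.52, 0.12) or 2 (0.56, 0.097) and TGF-β-treated SOX4-shRNA replicate 2 (0.49, 0.057), and ranged from adjusted p = 0.0070 to 0.12. The JUN call for the knockdown was lost on leaving out any library but untreated SOX4-shRNA replicate 2 (0.30 to 0.44, adjusted p = 0.064 to 0.17). The JUNB call was lost without untreated scrambled replicate 2 (0.83, adjusted p = 0.073), TGF-β-treated scrambled replicate 1 (1.002, 0.061) or 2 (0.89, 0.085) and TGF-β-treated SOX4-shRNA replicate 2 (0.79, 0.050), and ranged from adjusted p = 0.0037 to 0.10.

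Other genes of the same pathways were taken from 6 lists, of which the genes fitted are counted, in the 4 pairwise comparisons. Of 25 other immediate early genes 12 were fitted. With TGF-β, 6 rose and 0 fell in SOX4-shRNA cells (list median 0.52, against -0.05 over all genes), and 4 rose and 0 fell in scrambled-shRNA cells (0.35, against -0.03). RHOB, a small GTPase, led in both, with 45.97 and 58.998 FPKM in treated against 15.1 and 14.1 FPKM in untreated SOX4-shRNA cells (1.77 ± 0.15, limma adjusted p = 0.00073) and 91.4 and 98.6 FPKM in treated against 36.6 and 30.7 FPKM in untreated scrambled-shRNA cells (1.47 ± 0.15, adjusted p = 0.0028). GADD45B, a stress sensor, rose by 1.40 ± 0.14 and 0.77 ± 0.14, and the matricellular CCN2 by 0.81 ± 0.11 and 0.96 ± 0.11 in SOX4-shRNA and scrambled-shRNA cells, with CCN1 at 0.61 and 0.40. KLF4 (0.65) and BTG2 (0.54), named after their values were seen, were called in SOX4-shRNA cells and not in scrambled-shRNA cells (0.33 and 0.53), and the difference between the cells was not called for either (interaction adjusted p by limma of 0.99 and 0.997). For the knockdown 0 rose and 1 fell at each treatment, RHOB in both (-0.85 ± 0.15 with TGF-β and -1.15 ± 0.15 without). Not all of these calls were stable over 20 alternatives. In SOX4-shRNA cells the TGF-β call of BTG2 was lost in 16 and that of KLF4 in 7, while those of RHOB and GADD45B were lost in 0 and those of CCN1 and CCN2 in 1 each. In scrambled-shRNA cells the calls were lost in 8 (CCN1), 5 (GADD45B), 3 (CCN2) and 1 (RHOB), and the knockdown calls of RHOB in 6 with TGF-β and 1 without.

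Of 25 reported AP-1 or EGR1 target genes 8 were fitted. With TGF-β, 5 rose and 0 fell in each kind of cell (list median 0.64 in SOX4-shRNA and 0.90 in scrambled-shRNA cells), 4 of them in both. MMP10, a secreted protease, rose by 1.05 ± 0.16 in SOX4-shRNA and 1.98 ± 0.16 in scrambled-shRNA cells, PTGS2, the inducible cyclooxygenase, by 0.82 ± 0.13 and 1.57 ± 0.13, HMOX1, which breaks down heme, by 1.12 ± 0.16 and 1.39 ± 0.16, and IVL, a cornified envelope protein, by 1.19 ± 0.16 and 0.90 ± 0.16. The fifth was CCND1 in SOX4-shRNA cells (0.45) and CXCL8 in scrambled-shRNA cells (0.63), both named after their values were seen. Their directions for the knockdown were mixed. With TGF-β 1 rose and 3 fell, the chemokine gene CXCL8 by 0.997 ± 0.13 and PTGS2 (-1.47 ± 0.13), MMP10 (-1.41 ± 0.16) and IVL (-0.80 ± 0.16). Without TGF-β 2 rose and 3 fell, CXCL8 (1.98 ± 0.13) and IL6 (1.39 ± 0.25) against IVL (-1.09 ± 0.16), PTGS2 (-0.73 ± 0.13) and GDF15 (-1.24 ± 0.23), the last named after its value was seen. The response to TGF-β was not called as different between the cells for any of the 8, by limma or voom, although 4 had an unadjusted p under 0.05. The difference was -0.98 ± 0.18 for CXCL8 (limma adjusted p = 0.72), which measured -0.35 in SOX4-shRNA cells, -0.93 ± 0.23 for MMP10 and -0.74 ± 0.18 for PTGS2 (adjusted p = 0.99 each), and 0.77 ± 0.32 for GDF15. MMP10 had 1.33 and 1.48 FPKM in TGF-β-treated and 0.046 and 0.290 FPKM in untreated SOX4-shRNA cells. In scrambled-shRNA cells it had 5.75 and 5.10 FPKM with TGF-β and 0.804 and 0.458 FPKM without. The untreated values are under the 1 FPKM added before the logarithm. That scale therefore understates the MMP10 fold changes, more so in SOX4-shRNA cells. PTGS2 had 3.02 and 3.41 FPKM in TGF-β-treated and 1.22 and 1.55 FPKM in untreated SOX4-shRNA cells, against 10.7 and 10.6 FPKM in TGF-β-treated and 2.76 and 3.12 FPKM in untreated scrambled-shRNA cells, so both libraries of each SOX4-shRNA group lay below those of its scrambled counterpart while EGR1 and JUN lay above. Over 20 alternatives the knockdown calls with TGF-β were lost in 10 (IVL), 3 (MMP10), 2 (CXCL8) and 0 (PTGS2), and those without TGF-β in 8 (PTGS2), 8 (GDF15), 4 (IVL) and 0 (CXCL8), with IL6 in 4 of 19. The TGF-β calls were lost in 11 for CCND1, 7 for CXCL8, 6 for IVL in scrambled-shRNA cells and at most 3 for the others.

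Among upstream genes, few were fitted. Of 8 SRF and EGR partners 4 were fitted, and the ETS factor ELK3 rose with TGF-β by 0.92 ± 0.13 in SOX4-shRNA and 0.54 ± 0.13 in scrambled-shRNA cells, with 0 called by limma or voom for the knockdown at either treatment (2 with an unadjusted p under 0.05 without TGF-β and 0 with it). Averaged over treatments, 1 was called, MRTFB (0.33 ± 0.09, limma adjusted p = 0.045), named after its value was seen and overlapped by TVP23CP2 on its own strand. Of 11 EGF family ligands and receptors 3 were fitted. HBEGF, a ligand of the EGF receptor, rose with TGF-β by 0.63 ± 0.10 in SOX4-shRNA and 0.47 ± 0.10 in scrambled-shRNA cells. EREG, another ligand, fell on knockdown, with 3.51 and 3.05 FPKM in SOX4-shRNA against 6.37 and 6.27 FPKM in scrambled-shRNA cells with TGF-β (-0.78 ± 0.13, limma adjusted p = 0.019) and 3.84 and 4.62 against 6.56 and 7.35 FPKM without it (-0.61 ± 0.13, adjusted p = 0.041). The EREG calls were lost in 7 of 20 alternatives with TGF-β and 11 without, 4 and 6 of them on leaving out 1 library. In scrambled-shRNA cells the TGF-β calls of ELK3 and HBEGF were lost in 8 and 6, against 0 and 2 in SOX4-shRNA cells. Of 21 other bZIP factors 6 and of 15 MAP kinases 6 were fitted, and 0 of either list were called by limma or voom in any of the 4 comparisons, where at most 1 and 2 had an unadjusted p under 0.05. Exons on the opposite strand overlap CCN2, KLF4, ELK3, PTGS2, CCND1 and IL6, so their values are uncertain like that of JUNB.

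**Figure D5:**
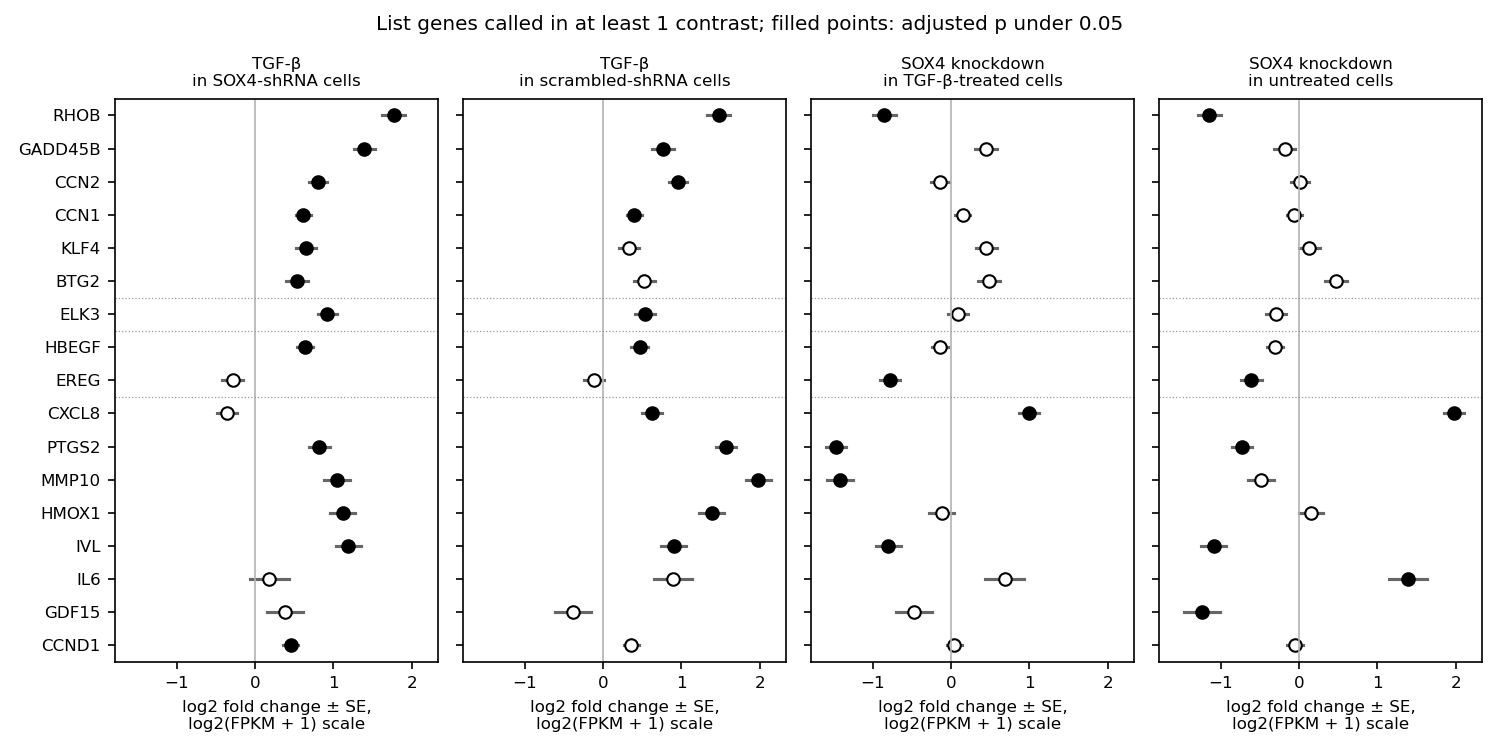
Log2 fold change ± SE on the log2(FPKM + 1) scale (horizontal axis) of the 17 list genes called in at least 1 of 4 comparisons, from top to bottom immediate early genes, ELK3, EGF family ligands and reported AP-1 or EGR1 targets, with dotted lines between lists and filled points where the threshold was passed. RHOB rises with TGF-β and falls on knockdown, and CXCL8 rises most on knockdown in untreated cells (1.98).

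The genes with the pattern most like that of EGR1 over the 8 libraries, by Pearson correlation of log2(FPKM + 1), were SMO (r = 0.989), IMPA2 (r = 0.985) and IFI30 (r = 0.981). SMO had 1.82 and 2.15 FPKM in TGF-β-treated and 3.83 and 3.08 FPKM in untreated SOX4-shRNA cells, against 0.818 and 0.803 FPKM in TGF-β-treated and 1.89 and 1.48 FPKM in untreated scrambled-shRNA cells, the same order of groups as EGR1. For FOS they were ESRG (r = 0.974), TPP1 (r = 0.948) and RRAGA (r = 0.944). Other genes overlap SMO on the opposite strand, TPP1 on both strands and IFI30 on its own strand, so their values are uncertain. The libraries are the same 8 and share their groups and depth, so these are descriptions. Among the members the highest was that of FOSL2 with JUN (r = 0.80), while FOS and EGR1 ran against each other (r = -0.57).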

How the data were processed

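RNA of 8 HMLE libraries was sequenced with single reads of 75 nt, per the labels' protocols, which give a ribosomal RNA depletion kit while the molecule label names polyA RNA. The submitters' processing notes name TopHat2 2.0.9, Cufflinks 2.2.1, Cuffdiff and hg19. Neither the library scaling nor whether reads were counted by strand is given in the sources used here. The deposited values are FPKM per RefSeq transcript, and 34.1% of cells had lost the decimal mark and 13.9% had a damaged exponent (below 1e-04, set to 0).

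For genes with 1 transcript, the mark was placed where FPKM, library factor and transcript length gave whole reads. The tolerance was 0.003 reads plus a margin that grew with the read count, and most but not all libraries of a gene had to meet it. Of 5739 genes searched, 4877 (85.0%) did so, and 169 did when the last digits were random. The posterior also weighted the mean level and favoured close values within and between groups. The 4816 with a posterior of at least 0.95 were tested with limma 3.58.1 in R 4.3.3, whose moderated test used log2(FPKM + 1), an intensity trend, all 4 groups and Benjamini-Hochberg adjustment at 0.05, for genes with at least 1 FPKM in 2 libraries. Simulated libraries had changes in all TGF-β-treated groups and were tested for TGF-β in scrambled-shRNA cells. Of their genes, 90 of 97 changed 2-fold, 90 of 90 changed 4-fold and 12 of 4452 unchanged were called. The simulated libraries varied independently of each other, unlike the real ones, so these rates may not hold here. The file holds FPKM with lost marks, so its unit was recorded as other. Gene coordinates are from GENCODE 44 lifted to GRCh37 and promoters from RefSeq GRCh38.p14.

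The members and lists were chosen with earlier results of these data known. All members are named, and of each list up to 4 genes called per pairwise comparison, by p, with exceptions stated. FOS and EGR1 have their 3 most correlated genes named. The alternatives were pseudocounts, filters, scalings, priors, fewer groups, a replicate block, all kept genes, voom on whole reads and each library left out. Leaving out a library leaves 1 in its group, which is assumed to vary like the others.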

Additional observations from a re-analysis of the deposited data

How the results depend on the processing

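Over 600 repeats of the tests of 6 members in the 4 comparisons and the interaction, 39 calls were lost, 7 were gained and 0 called values changed sign, the crossed block below aside. Most of the 600 had no call to lose. Of 20 alternatives each, the calls for TGF-β in SOX4-shRNA cells were lost in 11 (JUN) and 10 (JUNB). The EGR1 call was lost in 6 for TGF-β in scrambled-shRNA cells, 3 for the knockdown with TGF-β and 9 without it. For TGF-β in SOX4-shRNA cells 2 members were called, against 0 with no filter, 0 with only the groups compared, 0 with the replicate block and 0 with all kept genes (0 to 2 on leaving out a library). For TGF-β in scrambled-shRNA cells 1 was called, against 0 with no filter, 2 with median scaling, 2 with quantile scaling, 3 with only the groups compared and 0 with all kept genes (0 to 2 on leaving out a library). For the knockdown with TGF-β 1 was called, against 0 with all kept genes (0 to 1 on leaving out a library). For the knockdown without TGF-β 1 was called, against 0 with no filter, 0 with only the groups compared, 0 with the replicate block and 0 with all kept genes (0 to 1 on leaving out a library). For the averaged knockdown 3 were called, against 1 with no filter, 1 with the replicate block and 1 with all kept genes (1 to 3 on leaving out a library), and for averaged TGF-β 3, with 2 to 3 in every alternative. Fits with more genes changed both the adjustment and the SEs, and the cause of the changed counts was not tested for any setting.

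Over all genes, 412 were called for TGF-β in SOX4-shRNA cells, against 224 with no filter, 91 with only the groups compared, 203 with the replicate block, 216 with all kept genes and 155 to 286 without a library. In scrambled-shRNA cells 334 were called, against 181, 943, 155, 146 and 10 to 416. For the knockdown with TGF-β 186 were called, against 88 with no filter, 102 with a filter of 5 FPKM, 81 with the block, 88 with all kept genes and 16 to 204 without a library. Without TGF-β 192 were called, against 90 with no filter, 109 with a filter of 5 FPKM, 66 with only the groups compared, 108 with the block, 22 to 198 without a library. For the averaged knockdown 586 were called, against 362 with a filter of 5 FPKM, 348 with the block and 200 to 516 without a library, and for averaged TGF-β 1042, against 428 to 1032 without a library.

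Same-numbered libraries did not deviate together throughout (r = -0.65 between treated and untreated SOX4-shRNA and -0.23 between treated and untreated scrambled-shRNA cells, 0.36 with TGF-β and 0.55 without between the shRNAs), so the numbers were not taken as pairs. A block with numbers crossed between treatments, added after the data were seen, called 3 members and 1134 genes for TGF-β in SOX4-shRNA cells, 3 and 1210 in scrambled-shRNA cells, 3 and 597 for the knockdown with TGF-β, 4 and 778 without it, 0 and 0 for the interaction, 5 and 1327 for the averaged knockdown and 3 and 1962 for averaged TGF-β. FOSB rests on 27 to 76 reads per library, and counting error covers sampling of reads only.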
